A study of Mus musculus with 94 samples.

Results

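Macrophage segments of entospletinib-treated and vehicle-treated mice were compared on day 7 after ischemia-reperfusion injury (IRI) of the kidney. The 12 segments, 6 from entospletinib-treated and 6 from vehicle-treated mice, were part of 46 macrophage segments and 94 segments in the series. They were chosen by their labels alone, which give the IBA1 stain, the day, and the treatment. A segment is the stained part of a region of interest from which digital spatial profiling (DSP) collects probe barcodes, and each group had 4 segments in the cortex and 2 in the medulla, from 2 tissue sections with 3 regions each. All mice were C57BL/6 males. Those of the day 7 groups had IRI of one kidney, were treated before it with entospletinib or vehicle, and were killed on day 7. The labels give a single pretreatment 24 hours before IRI, whereas the study's methods give a shorter interval and further injections up to day 7, so the schedule is uncertain. The day 1 and day 14 groups used below carry the same pretreatment label, and the control group carries none. By the study's methods, day 1 mice had no further injections, and day 14 mice were injected every 2 days after day 7. The days therefore differed in dosing as well as in time. The control group used below for levels came from uninjured kidneys. The study's methods name both contralateral kidneys and kidneys of healthy mice as controls, without saying which were used for DSP.

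Spleen tyrosine kinase (SYK) is a cytoplasmic kinase of blood-derived cells that relays signals from Fc receptors and C-type lectin receptors, and entospletinib is a selective SYK inhibitor. Macrophages are present in the resting kidney, and after IRI more of them arise from recruited monocytes. They clear dying tubular cells, release inflammatory mediators in the early response, and take part in repair or scarring later. IBA1 is a cytoplasmic protein of macrophages, so an IBA1-positive segment is rich in macrophages, but it may hold RNA of neighboring cells, and it does not separate resident from recruited cells.

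The counts are unique molecular identifiers (UMIs) per probe, in which PCR copies of a barcode count once. Each of the 20175 probes is listed under an identifier without a gene name, so the results are given per probe, and IBA1 or other macrophage genes could not be looked up. Of these probes, 20171 had 20 or more counts over the 12 segments and were tested. Counts were summed over the regions of a section, which made the section the unit of replication (n = 2 for each group), and all 14 macrophage section sums shared a single fit. The study's design names 2 mice per condition and the 2 sections of a group carry different prefixes, but the labels do not state that a prefix is a mouse, so p-values measure the spread between sections.

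Far fewer counts came from the macrophage segments of entospletinib-treated mice. In the vehicle group, section 1 gave 328462 and 337497 counts in its cortical segments and 556429 in its medullary segment. Section 2 of that group gave 460556 and 582121 counts in the cortex and 771296 in the medulla. With entospletinib, section 1 gave 244287 and 239405 counts in the cortex and 150398 in the medulla. Section 2 of the entospletinib group was the shallowest, with 54855 and 21736 counts in the cortex and 41102 in the medulla. All 6 entospletinib segments lay below all 6 vehicle segments, and the medullary segment was the highest of its section in both vehicle sections and in neither entospletinib section.

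Summed per section, the vehicle group had 1222388 and 1813973 counts and the entospletinib group 634090 and 117693. The mean with entospletinib was 0.248 times that with vehicle (375892 ± 365148 against 1518181 ± 418314, SD, n = 2 sections). The sections did not overlap, but 2 sections against 2 cannot give a two-sided exact permutation p below 0.333, which was the value obtained. In section totals, a smaller collected area, fewer macrophages in it, and less RNA per cell cannot be told apart, nor from other reasons for fewer counts. The area and cell number of a segment were not used here. The 2 control sections held 159453 and 298063 macrophage counts, so that the entospletinib totals lay on either side of those of uninjured kidneys.

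The gap was not shared by the tubular segments collected from the same 12 regions. Those held 2795876 to 5931414 counts (median 4399283) with vehicle and 3650939 to 8962302 (median 6261475) with entospletinib, and the groups overlapped. Relative to the tubular segment of its own region, a macrophage segment held 7.48% to 17.5% as many counts with vehicle (median 11.5%) and 0.36% to 6.56% with entospletinib (median 1.20%), without overlap. Sequencing followed the same order, with 1417228 to 3106351 raw reads per vehicle segment and 97761 to 1129358 per entospletinib segment. Saturation, the share of aligned reads that were repeats of a UMI already seen, was 69.4% to 77.2% with vehicle and 75.9% to 78.2% with entospletinib, and the ranges overlapped.

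**Figure D1:**
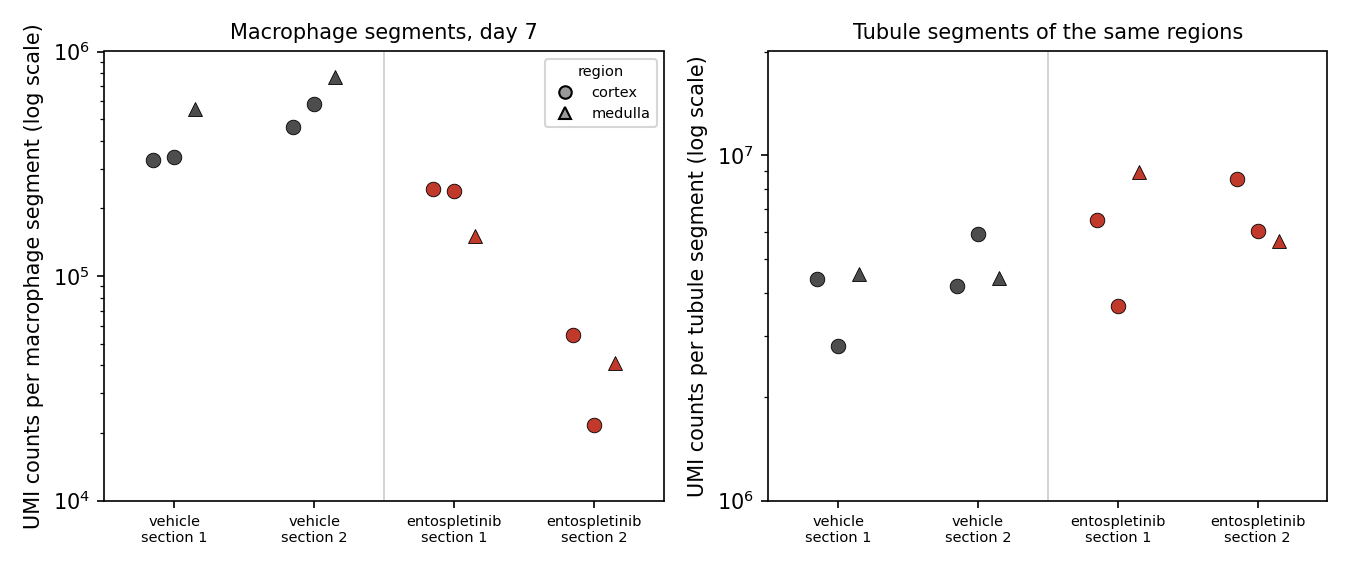
UMI counts per segment on day 7 for macrophage segments (left) and the tubular segments of the same regions (right), on log axes, by treatment and section. Each point is a segment, circles are cortex and triangles medulla. Macrophage segments range from 21736 to 244287 counts with entospletinib and from 328462 to 771296 with vehicle, whereas the tubular segments of the groups overlap.

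Fewer counts meant fewer probes seen. A count was present for 20110 to 20173 probes in vehicle segments and for 10101 to 19944 in entospletinib segments, and the median probe had 10 to 19 counts in a vehicle segment and 1 to 6 in an entospletinib segment. After each segment was thinned to the lowest total, 21736 counts, the vehicle segments showed 9427 to 10347 probes and the entospletinib segments 9532 to 10131, with overlapping ranges. The 100 most counted probes then held 15.5% to 19.4% of counts with vehicle and 17.1% to 21.1% with entospletinib. At equal depth the breadth of the libraries therefore overlapped between the groups. The most abundant probe took 2.88% to 3.98% of counts in vehicle segments and 2.37% to 2.72% in entospletinib segments, which did not overlap, and its level was not called different between sections (log2 fold change -0.39 ± 0.30 SE, edgeR adjusted p = 0.676).

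Between entospletinib and vehicle on day 7, 482 probes were higher (2.39% of those tested) and 442 were lower (2.19%) in macrophage segments. Calls rested on edgeR's quasi-likelihood test and needed more than a 2-fold change together with a Benjamini-Hochberg adjusted p under 0.05. The log2 fold changes of the called probes had a median of 1.41 and a highest value of 3.74 among those that rose, and a median of -1.49 and a lowest value of -3.67 among those that fell. A change of over 4-fold was seen for 66 probes that rose and 68 that fell. Over all probes tested the median log2 fold change was 0.06. Together the probes that rose took 4.29% of all counts in vehicle segments and 13.6% in entospletinib segments, and those that fell took 9.26% and 2.67%.

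The calls leaned on abundant probes and on section 1 of the entospletinib group. By mean level in the macrophage sections outside day 7, 249 of the 482 probes that rose and 177 of the 442 that fell were among the 2017 most abundant probes. Of the 2018 least abundant, 0 were called. Without section 1 of the entospletinib group, the shallow section 2 alone stood against vehicle and 39 probes were called higher and 7 lower, whereas 551 and 383 were called without section 2. In the shallow section alone, 471 of the 482 and all 442 probes kept their sign, but that section and the same vehicle sections had helped to choose these probes. Without vehicle section 1 the calls were 231 higher and 281 lower, and without vehicle section 2 they were 353 and 214.

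Single segments were compared in CPM, the count of a probe per 1000000 counts of its segment. Over all probes tested, 262 (1.3%) lay higher in all 6 entospletinib segments than in any vehicle segment, and 528 (2.62%) lay lower in all 6. Among the called probes, 179 of the 482 that rose and 243 of the 442 that fell separated in this way. The same segments made up the sums behind the calls, so this separation was in part set by the choice of probes. In the shallowest segment 1 count was worth 46 CPM, so that a probe with few counts moved in large steps there.

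Of the probes that rose, the 2 with the smallest p were RTS0066357 and RTS0066546. How their levels compare with those in tubular segments is given below. RTS0066546 measured 122, 124, and 77.3 CPM in the segments of vehicle section 1 and 271, 261, and 80.4 CPM in those of vehicle section 2, each time with the cortex first and the medulla last. With entospletinib it measured 1175, 1332, and 738 CPM in section 1 and 857, 1012, and 1192 CPM in section 2. All entospletinib segments lay above all vehicle segments, and the lowest vehicle segment in either section was the medulla. The section levels were 145 ± 59.8 CPM with vehicle and 1067 ± 90.6 with entospletinib (SD, n = 2), a log2 fold change of 2.90 ± 0.33 (SE, edgeR adjusted p = 1.35e-07).

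RTS0066357 was a less abundant probe, with 3 to 52 counts per entospletinib segment. In the order used above, it measured 24.4, 35.6, and 19.8 CPM in vehicle section 1 and 45.6, 34.4, and 11.7 CPM in vehicle section 2. It measured 139, 217, and 33.2 CPM in entospletinib section 1 and 128, 138, and 122 CPM in entospletinib section 2. The medullary segment of entospletinib section 1, with 5 counts, lay within the vehicle range, and the other entospletinib segments lay above it. The section levels were 26.5 ± 1.56 CPM with vehicle and 135 ± 11.4 with entospletinib, a log2 fold change of 2.45 ± 0.28 (SE, edgeR adjusted p = 1.35e-07). In medullary regions alone the log2 fold change was not called (edgeR adjusted p = 0.209).

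Of the probes that fell, RTS0065999 and RTS0064248 had the smallest p. RTS0065999 measured 131, 204, and 169 CPM in vehicle section 1 and 193, 170, and 194 CPM in vehicle section 2, from 43 to 150 counts per segment. With entospletinib it measured 20.5, 25.1, and 33.2 CPM in section 1 and 18.2, 0, and 122 CPM in section 2, from 0 to 6 counts. The groups did not overlap, and the highest entospletinib value rested on 5 counts in a medullary segment. A count of 0 in the shallowest segment allows a level of up to 138 CPM (3 counts, counting error only), which is above the lowest vehicle value. The section levels were 177 ± 12.6 CPM with vehicle and 38.1 ± 18.2 with entospletinib, a log2 fold change of -2.46 ± 0.34 (SE, edgeR adjusted p = 3.79e-06).

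RTS0064248 measured 85.2, 139, and 164 CPM in vehicle section 1 and 115, 141, and 134 CPM in vehicle section 2. With entospletinib it measured 12.3, 8.35, and 13.3 CPM in section 1 and 18.2, 0, and 97.3 CPM in section 2, from 0 to 4 counts per segment. The medullary segment of section 2, with 4 counts, lay inside the vehicle range and the other entospletinib segments lay below it. The section levels were 134 ± 3.25 CPM with vehicle and 26.8 ± 22.2 with entospletinib, a log2 fold change of -2.90 ± 0.41 (SE, edgeR adjusted p = 3.79e-06). When section 1 of the entospletinib group was left out, RTS0064248 and RTS0065999 were not called, at log2 fold changes of -1.77 and -1.92 (edgeR adjusted p = 0.293 and 0.129), while RTS0066357 and RTS0066546 were, at 2.13 and 2.66 (edgeR adjusted p = 0.0493 and 0.000165).

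**Figure D2:**
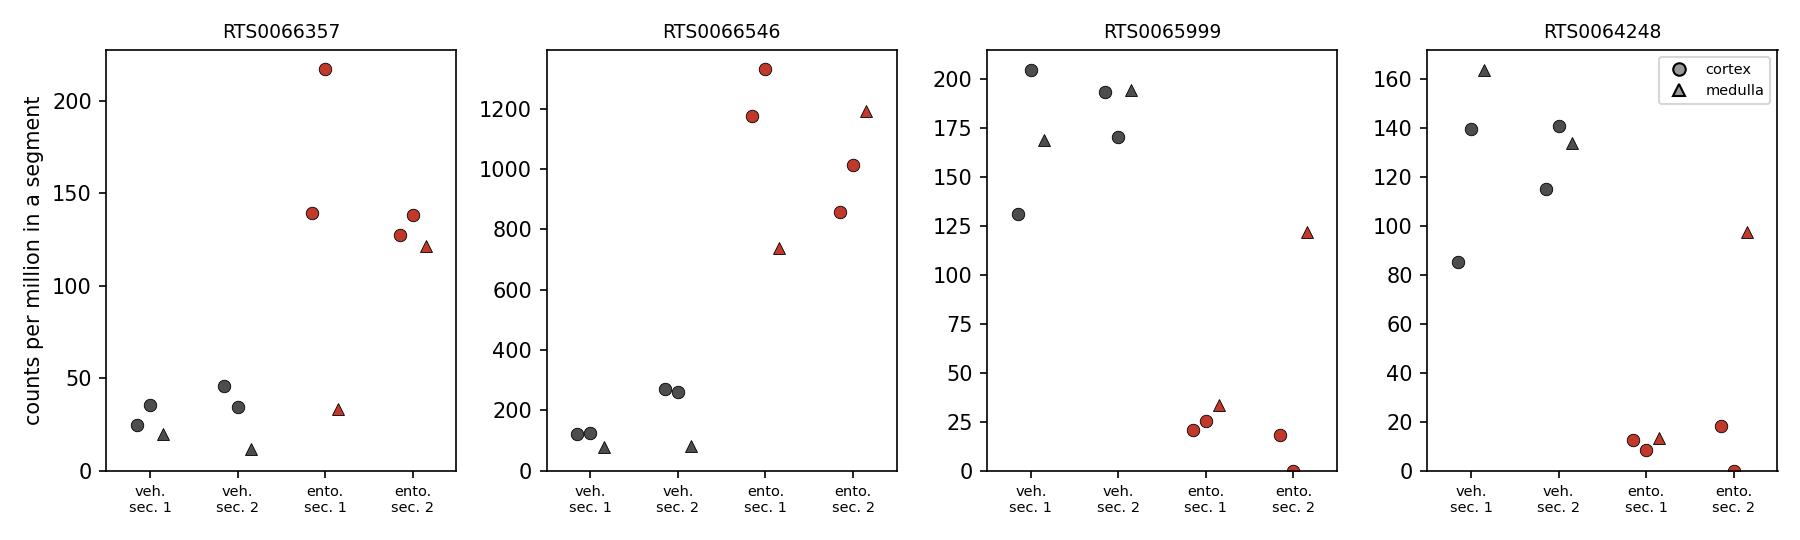
Level of the 4 named probes (CPM, linear axes from 0) in each of the 12 day 7 macrophage segments, by treatment (veh., vehicle; ento., entospletinib) and section (sec.). Circles are cortex and triangles medulla. RTS0066546 lies between 738 and 1332 CPM with entospletinib and between 77.3 and 271 with vehicle, and the 2 lower probes rest on 0 to 6 counts per entospletinib segment.

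The probes that rose with entospletinib were mostly more abundant in tubular segments, and those that fell were mostly more abundant in macrophage segments. This was read from the 10 sections outside day 7, whose levels entered the calls only through the shared estimate of the spread, by comparing the tubular with the macrophage sum of each section. There, 462 of the 482 probes that rose had a higher level in tubular segments (95.9%, against 56% of all probes tested), with a median log2 difference of 0.68. Of the 442 that fell, 422 had a higher level in macrophage segments (95.5%, against 44% of all tested), with a median log2 difference, tubule over macrophage, of -0.87. In an edgeR fit with the section as a block, 114 probes (0.565%) passed the same thresholds for a higher level in tubular segments and 364 (1.8%) for a higher level in macrophage segments, and these are called tubule-leaning and macrophage-leaning below.

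On day 7 the log2 fold change between entospletinib and vehicle in macrophage segments was positive for all 114 tubule-leaning probes (median 1.71). Of these, 64 were called higher (56.1%, against 2.39% of all probes tested) and 0 lower. The fold change was negative for 354 of the 364 macrophage-leaning probes (median -1.34). Of those, 184 were called lower (50.5%, against 2.19% of all tested) and 1 higher. The median over all probes tested was 0.06. The leaning probes were a minority of the calls. Of the 19693 probes that passed the thresholds for a lean in neither direction, 417 were called higher (2.12%) and 258 lower (1.31%). Missing these thresholds does not mean an equal level in the 2 compartments. As given above, 462 of all 482 probes that rose were higher in tubular segments. Of all 442 that fell, 422 were higher in macrophage segments. Among the named probes, RTS0066546 was tubule-leaning, at a log2 difference, tubule over macrophage, of 1.02. RTS0064248 was macrophage-leaning, at -1.66. RTS0066357, at 0.80, and RTS0065999, at -0.93, missed the fold change threshold for a lean.

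The share of a segment's counts on these probes separated the groups. Tubule-leaning probes took 0.723% to 1.66% of counts in vehicle macrophage segments (median 1.17%) and 3.85% to 7.10% in entospletinib macrophage segments (median 5.15%). Macrophage-leaning probes took 7.47% to 9.07% with vehicle (median 8.37%) and 4.67% to 6.69% with entospletinib (median 5.27%). In neither case did the groups overlap. In control macrophage segments the shares were 1.91% to 4.57% and 2.74% to 4.75%. Of the 6 entospletinib segments, 4 lay above the control range for tubule-leaning probes and 4 above it for macrophage-leaning probes.

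Tubular segments of day 7 gave the levels on the other side. Macrophage-leaning probes took 0.87% to 1.43% of their counts with entospletinib and 1.49% to 2.71% with vehicle, so the macrophage segments held a higher share than any tubular segment in both groups. Tubule-leaning probes took 4.77% to 12.3% in tubular segments with entospletinib and 2.13% to 6.08% with vehicle. Within the entospletinib group, the segments with the most counts had the lowest shares of tubule-leaning probes, 3.85% at 244287 counts and 4.41% at 239405. The highest share, 7.10%, was at 150398 counts, and the shallowest segment had 5.10%. The part of tubular RNA in the called differences was not tested.

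**Figure D3:**
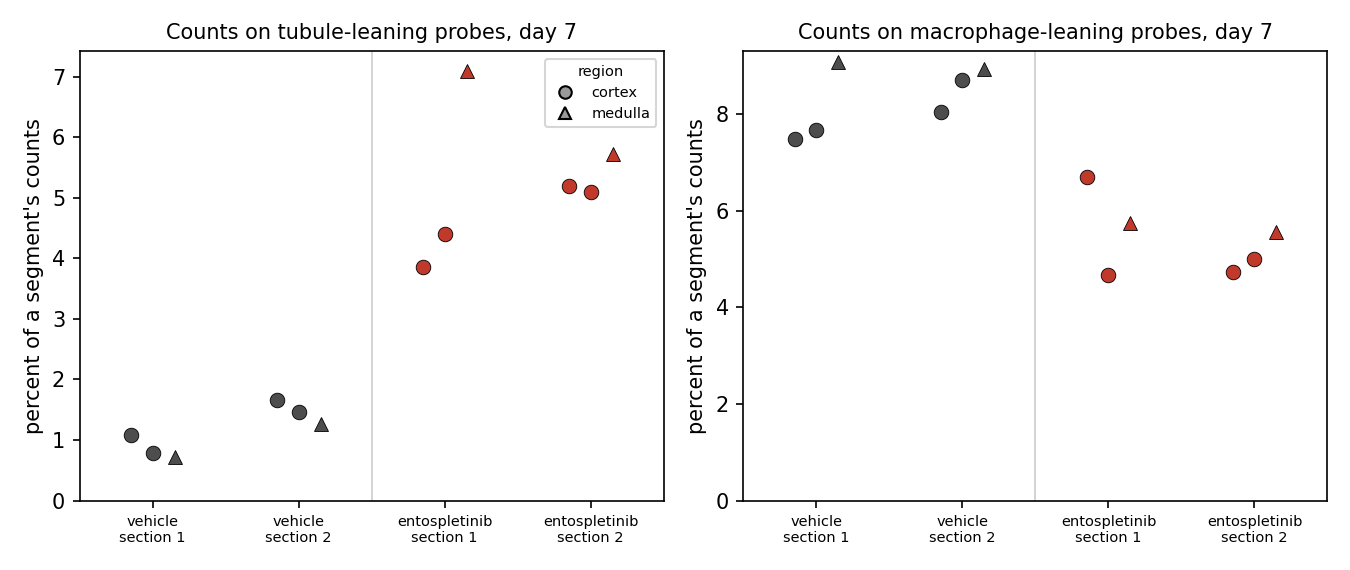
Percent of a macrophage segment's counts that fell on the 114 tubule-leaning (left) and the 364 macrophage-leaning probes (right) on day 7, by treatment and section, on linear axes from 0. Each point is a segment, circles are cortex and triangles medulla. The groups do not overlap in either panel, with 3.85% to 7.10% against 0.723% to 1.66% on the left and 4.67% to 6.69% against 7.47% to 9.07% on the right.

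Across the other groups, day 7 and day 14 vehicle macrophage segments stood together at one end. Levels are given as the median log2 CPM of a list in each of the 2 sections of a group, and the day 7 levels are a description because the lists were called on them. The probes that rose had 5.63 and 5.94 in day 7 vehicle sections and 7.36 and 6.95 in day 7 entospletinib sections, against 7.05 and 6.84 in control sections. The probes that fell had 6.75 and 6.80 with vehicle and 5.20 and 5.58 with entospletinib, against 5.37 and 5.85 in controls. In both lists the control levels overlapped those of entospletinib and not those of vehicle. By group means, the control was nearer to entospletinib than to vehicle for 425 of the 482 probes that rose (88.2%) and 369 of the 442 that fell (83.5%), against 46.5% of all probes tested.

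In day 14 vehicle sections, which entered the calls only through the shared estimate of the spread, the probes that rose were at 5.51 and 5.47 and those that fell at 6.89 and 7.14 log2 CPM. In day 14 entospletinib sections they were at 6.73 and 6.78, and at 5.87 and 6.39. On day 1 the probes that rose were at 6.14 and 6.43 with vehicle and 6.78 and 6.46 with entospletinib, and those that fell were at 6.29 and 5.94 and at 5.75 and 5.93. The treatment groups thus did not overlap on day 14 or on day 1 in either list. On day 1, however, the gap between group means was similar to that between the sections of a group.

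The named probes varied in their place among these groups. In the 2 control sections RTS0066546 was at 903 and 845 CPM, near its day 7 entospletinib levels, and on day 14 it was at 119 and 81.5 CPM with vehicle and at 771 and 659 CPM with entospletinib. RTS0066357 was at 43.9 and 73.8 CPM in controls, between its day 7 groups, and at 24.5 and 17.3 against 53.9 and 82.9 CPM on day 14. RTS0065999 was at 56.4 and 57.0 CPM in controls, on 9 and 17 counts, and on day 14 at 117 and 123 CPM with vehicle and at 48.3 and 65.9 CPM with entospletinib. RTS0064248 was at 12.5 and 36.9 CPM in controls, on 2 and 11 counts, and on day 14 at 127 and 155 against 37.2 and 71.0 CPM. In all 4 probes the day 14 treatment groups did not overlap.

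**Figure D4:**
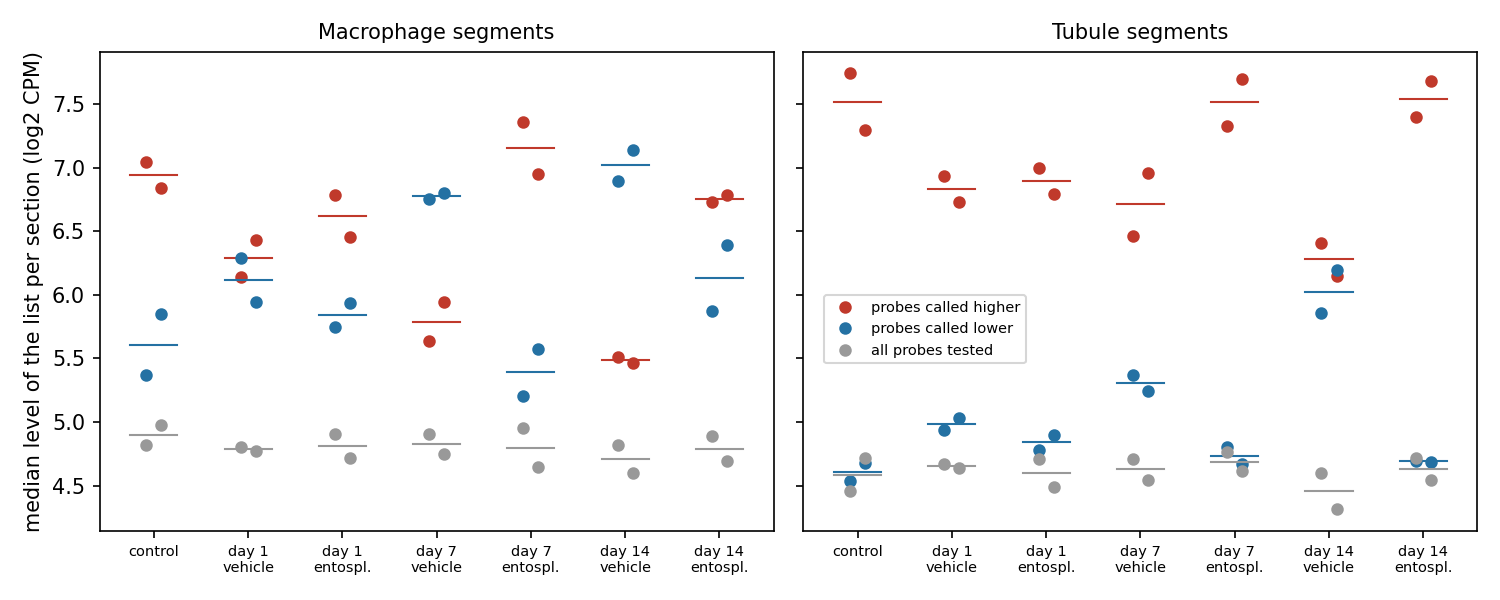
Median level (log2 CPM per section) of the 482 probes called higher, the 442 called lower, and all 20171 probes tested, in macrophage (left) and tubular segments (right) of the 7 groups. Points are the 2 sections of a group and short lines their mean. In macrophage segments of day 7 and day 14 vehicle sections, the lists sit at 5.47 to 5.94 and 6.75 to 7.14. In those of the entospletinib sections of the same days, the lists sit at 6.73 to 7.36 and 5.20 to 6.39.

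The differences found on day 7 recurred on day 14 in separate sections. Macrophage section totals were also lower with entospletinib on day 14, at 538072 and 591370 counts against 2773456 and 2024256 with vehicle. Tubule-leaning probes took a median of 4.62% of counts in day 14 entospletinib macrophage segments and 0.604% in vehicle ones, without overlap. The day 14 sections had helped to choose these probes. The part of depth and of tubular RNA in the recurrence was not tested. Of the 482 probes that rose on day 7, 480 had a positive log2 fold change between entospletinib and vehicle on day 14 (99.6%, against 55.6% of all probes tested), with a median of 1.29, and 316 were called higher there. Over all probes, 471 (2.34%) were called higher on day 14, so the shared probes were 65.6% of the day 7 list and 67.1% of the day 14 list. Of the 442 that fell, 434 had a negative fold change on day 14 (98.2%, against 44.4% of all), with a median of -0.86, and 171 were called lower. With 299 (1.48%) called lower on day 14, the shared probes were 38.7% of the day 7 list and 57.2% of the day 14 list. Across all 20171 probes the log2 fold changes of the days had a Pearson's r of 0.55 and a Spearman's rho of 0.43, a description across probes, which are not independent replicates because all come from the same 8 sections.

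The 4 named probes moved in the same direction on day 14, with log2 fold changes of 1.68 for RTS0066357, 2.82 for RTS0066546, -1.08 for RTS0065999, and -1.39 for RTS0064248 (edgeR adjusted p between 1.24e-07 and 0.00895). A direct test of the difference between the day 7 and day 14 effects called 0 probes (0%) in edgeR. Of the 20171 probes tested, 604 had an unadjusted p under 0.05, a share below the 0.05 that chance alone would give. The count of called probes was also 0 with TMM and with TMMwsp normalization. This does not show that the effects were equal, since each day had 2 sections per group. On day 1, 0 probes were called between entospletinib and vehicle in edgeR. There, 931 of the 20171 had an unadjusted p under 0.05, also a share below 0.05. The day 7 lists had small day 1 fold changes of the same sign, with 439 of the 482 positive (91.1%, against 54.4% of all, median log2 fold change 0.45) and 351 of the 442 negative (79.4%, against 45.6% of all, median -0.31).

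**Figure D5:**
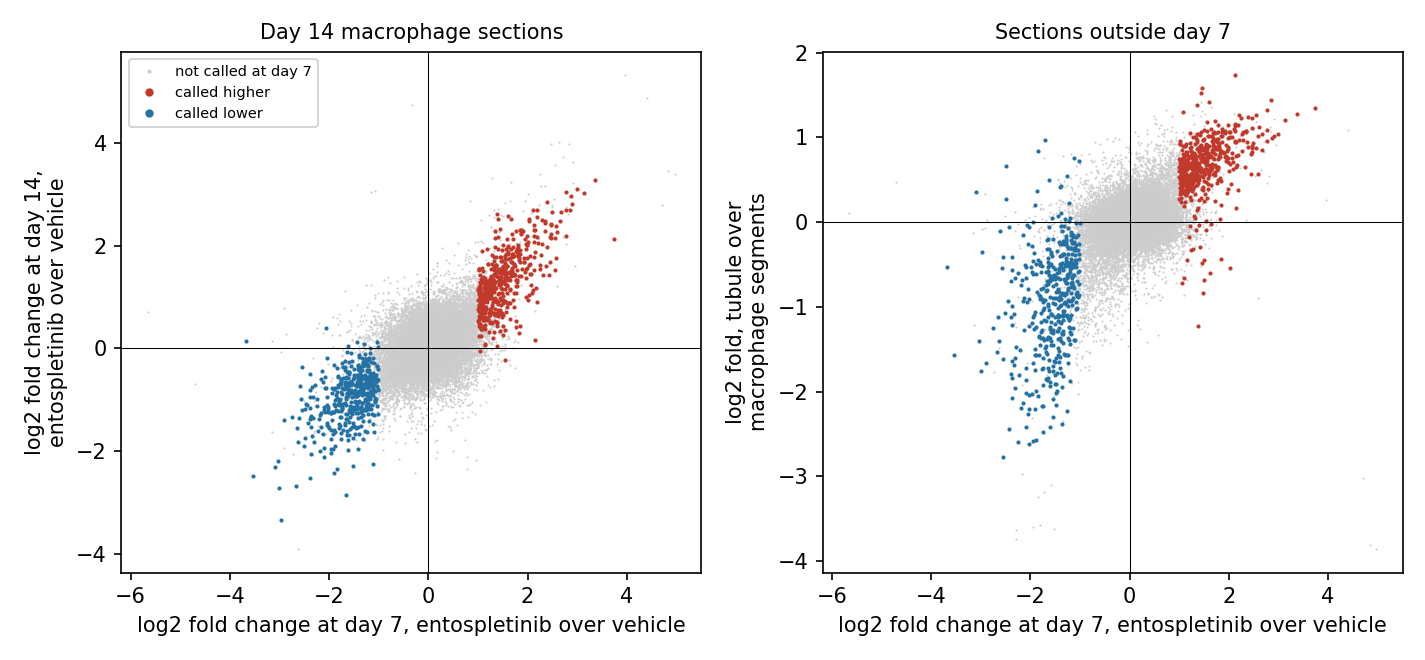
Log2 fold change between entospletinib and vehicle in day 7 macrophage segments (x axes), against that in day 14 macrophage segments (left). On the right it is set against the log2 fold between tubular and macrophage segments in the 10 sections outside day 7. Each point is a probe, gray where not called on day 7. Of the 482 probes called higher, 480 lie above 0 on the left and 462 on the right, and of the 442 called lower, 434 and 422 lie below 0.

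In the tubular segments of the same sections, fewer probes differed between entospletinib and vehicle on day 7, with 3 called higher (0.0149%) and 132 lower (0.654%). The lists found in macrophage segments nevertheless had mostly the same sign there. Of the 482 that rose, 480 were positive (median log2 fold change 0.74), and of the 442 that fell, 418 were negative (median -0.48). Over all probes, 71.5% were positive and 28.5% negative. All 3 tubular probes called higher and 84 of the 132 called lower were in the macrophage lists. The tubular and macrophage segments of a region lie side by side in the same section, so this is no separate set of mice. A test of the difference itself called 216 probes. The entospletinib effect was more positive in macrophage segments for 93 (0.461%) and more negative for 123 (0.61%). Without section 1 of the entospletinib group 1 probe was called, without its section 2 516, without vehicle section 1 107, and without vehicle section 2 46. Of the named probes, RTS0064248, RTS0065999, and RTS0066546 were among the 216, at log2 differences, macrophage minus tubule, of -2.62, -1.66, and 1.73 (edgeR adjusted p = 0.000228, 0.00757, and 0.000874). The tubular levels of RTS0064248 were 23.4 and 20.8 CPM with vehicle and 17.7 and 12.8 CPM with entospletinib. RTS0066546 was more abundant in tubular segments, at 450 and 768 CPM with vehicle and 1135 and 1447 CPM with entospletinib. Its levels in entospletinib macrophage sections were 1131 and 1003 CPM. The tubular levels of RTS0066357 were 49.5 and 127 CPM with vehicle and 123 and 214 CPM with entospletinib. In entospletinib macrophage sections RTS0066357 was at 144 and 127 CPM. The part of tubular RNA in these macrophage levels was not tested.

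Cortex and medulla gave the same direction for nearly all called probes. In cortical regions alone the median log2 fold changes were 1.37 for the probes that rose and -1.46 for those that fell, and in medullary regions alone they were 1.20 and -1.65. All 482 kept a positive sign in the cortex and 470 in the medulla, and all 442 kept a negative sign in both. These regions made up the sums, so their agreement in sign with the calls was in part set by the choice of probes. Medullary regions alone, with 1 segment per section, gave 149 probes called higher and 201 lower. A direct test of the difference called 28 probes, 22 with a more positive effect in the medulla (0.109%) and 6 with a more negative effect (0.0297%), and 0 were called without section 1 of the entospletinib group and 10 without vehicle section 1. The medulla made up 45.5% and 42.5% of counts in the vehicle sums and 23.7% and 34.9% in the entospletinib sums.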

How the data were processed

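DSP was performed with the GeoMx Mouse Whole Transcriptome Atlas on formalin-fixed kidney sections. The authors deposited raw UMI counts per probe, made with the GeoMx NGS Pipeline (given as version 3.1.1.5 by file headers, 2.2 by the deposited description, and 1.1 by the labels), before background evaluation, filtering, and normalization. The submitters' processing notes also list R 4.3.1 and mm10. The 2 samples that the study excluded are not named, so none was left out.

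Day 7 macrophage segments held 21736 to 771296 counts, with 96.6% to 97.3% of raw reads aligned. Probes with 20 or more counts over the 12 segments were kept. Section sums were scaled by their upper quartile, and edgeR 4.0.16 (robust quasi-likelihood, R 4.3.3) was used for testing, with Benjamini-Hochberg adjustment over all probes tested. Calls needed an absolute log2 fold change above 1 with an adjusted p under 0.05, and differences between effects the adjusted p alone. Standard errors are the absolute log2 fold change over the square root of F. Median levels were taken as log2 CPM after adding a prior count of 2. The study itself treated each region as a replicate, in DESeq2. The scripts were tested on simulated counts with 200 probes changed. At 2-fold and 4-fold changes, the main comparison called 14.3% and 70.5% of the changed probes. The test of day 7 against day 14 effects called 1.43% and 39.4%, and that of medulla against cortex 1.49% and 9.52%. The test of macrophage against tubular effects called 20.3% and 73.1%.

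The alternatives were TMM and TMMwsp, DESeq2 1.42.0, limma-voom 3.58.1 on segments with the section as a random effect, other filters, thinning, the prefix as a block, 1 region type, the 4 day 7 sums alone, and leaving out sections, for which a lone section was assumed to vary like the others. The tubule- and macrophage-leaning probes were added after the data were seen. The named probes were the 2 of smallest p called in each direction. The segments, lists, and tests were chosen with earlier results of these data known. No gene list or sequence was used, because no table at hand pairs probes with genes.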

Additional observations from a re-analysis of the deposited data

Results flagged for a closer look

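In 24 checks of a single far segment among the 6 of a treatment group, in which chance flags about 1 in 20, 2 values stood apart by Dixon's ratio. Both were in the medullary segment of entospletinib section 2, where RTS0065999 was at 122 CPM (5 counts) and RTS0064248 at 97.3 CPM (4 counts), with the other 5 entospletinib segments at or below 33.2 and 18.2 CPM. At a total of 41102 counts, 1 count was worth 24.3 CPM there.

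The entospletinib effect on day 7 differed between medulla and cortex for 28 probes and between macrophage and tubular segments for 216 probes, each by a direct test of the difference in edgeR. Both counts fell to 0 and 1 without section 1 of the entospletinib group.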

How the results depend on the processing

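The 482 higher and 442 lower calls stayed within 1.5 times their counts with TMM, TMMwsp, limma-voom on segments, no filter, both stricter filters, the 4 day 7 sums alone, an adjusted p alone, cortical regions alone, DESeq2 on segments, and, added after seeing the data, without the segment of lowest total (483 and 426). DESeq2 on the sums called 254 lower. Medullary regions alone called 149 higher and 201 lower, thinned segments (2364 probes tested) 115 and 112, and thinned sums (6068 tested) 190 and 128. Leaving out each section gave 39 to 551 higher and 7 to 383 lower. The share of calls that were higher was 52.2% in the result given above. Among settings that kept every section, it ranged from 41.2% with DESeq2 on segments to 59.7% with thinned sums. It lay above that range without section 1 of the entospletinib group and without vehicle section 2. The difference between medulla and cortex ranged from 0 to 33 probes over left-out sections, that between macrophages and tubules from 1 to 516, and that between days 7 and 14 from 0 to 1. The total with entospletinib over vehicle was 0.0775 to 0.418 over left-out sections. The cause of the changes between settings was not tested. With the prefix as a replicate block, 502 probes were called higher and 445 lower, and the deviations of same-numbered sections had a correlation of 0.05 over 1 pair of groups, so the numbers are not known to pair the sections. With 2 sections per group and 117693 counts in the shallowest sum, low probes were not resolved.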
